A study of Mus musculus with 6 samples.

Results

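Oxidative phosphorylation couples the oxidation of NADH and succinate to the synthesis of ATP in the inner mitochondrial membrane. The nuclear genes that encode its 5 complexes were examined in mouse embryonic stem (mES) cells. They were taken by symbol, as every gene whose name begins Nduf followed by a, b, c, s or v and a digit, Uqcr, Cox with a digit from 4 to 8 and the letter a, b or c, or Atp5, together with Sdha, Sdhb, Sdhc and Sdhd. The rule used no measured value. It found 80 of the 16668 genes listed: 37 of complex I (NADH dehydrogenase), 4 of complex II (succinate dehydrogenase), 8 of complex III (the cytochrome bc1 complex), 14 of complex IV (cytochrome c oxidase) and 17 of complex V (ATP synthase).

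RNA-seq had been performed on E14 cells, a feeder-independent mES line of strain 129/Ola, after siRNA transfection. All cells, controls included, were grown on gelatin in N2B27 medium with 1 µM PD0325901, 3 µM CHIR99021 and 1000 U/ml LIF, so every group shares this 2i + LIF state. Each of the labels control, Ring1B-KD and Dzip3-KD was carried by 2 of the 6 libraries. Ring1B, the product of Rnf2, and Dzip3 both attach ubiquitin to histone H2A. The study describes its RNA-seq duplicates as biological, while the labels give only a replicate number. The p-values of the label comparisons measure the spread between the libraries so labelled.

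Complexes I, III and IV pass electrons from NADH to oxygen through ubiquinone and cytochrome c while pumping protons, complex II feeds electrons from succinate, and complex V uses the proton gradient to make ATP. Genes were placed in complexes by symbol alone, and whether each encodes a subunit was not checked, so counts and sums by complex may include others. Some symbols are older than the present assignment: Ndufa4, taken here with complex I, is now regarded as a subunit of cytochrome c oxidase. Complexes I, III, IV and V each combine nuclear-encoded subunits with a core made from mitochondrial DNA, whereas complex II is wholly nuclear-encoded. Naive mES cells are known to use both glycolysis and respiration.

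The file of each library carries a number and a condition word in its name, and the word differed from the sample label for 4 of the 6 libraries. The files numbered 01, 02 and 03 held control 1, control 2 and Ring1B-KD 1 by label, and their words were control, Ring1BKD and Dzip3KD. The files numbered 04, 05 and 06 held Ring1B-KD 2 and both Dzip3-KD libraries (1, then 2) by label, with the same words in the same order. Both libraries labelled control therefore lie in 01 to 03 and both labelled Dzip3-KD in 04 to 06, so for these groups the label and the number cannot be told apart. Libraries that share a label carry different words, and those labelled Ring1B-KD also lie in different sets. The spread in the label comparisons therefore holds any difference that goes with the word or, for Ring1B-KD, with the number. The number is only part of a name and is not known to mark a batch. Group names below are those of the labels unless the number or the word is named.

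The authors deposited RPKM values, which are reads scaled to exon length and to the mapped reads of the library. Values summed to 126356 to 140481 RPKM per library, and the depth recovered from their steps was 3015349 to 3583613 mapped reads. Reads were recovered for 78 of the 80 members (not Atp5j and Ndufs1), and they totalled 8692 to 10492 reads per library. The 7 markers of embryonic stem cells (among them Pou5f1, Nanog and Zfp42) summed to 995 to 1321 RPKM. Markers of fibroblasts (3 of 5 listed) summed to 1.18 to 3.10 RPKM, those of primitive endoderm (5 of 5) to 0.569 to 1.34 RPKM and those of trophectoderm (4 of 5) to 10.2 to 16.4 RPKM. In bulk RNA, fewer cells of a type and less RNA per cell cannot be told apart.

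The targeted genes were examined first. By label, the level of Rnf2 was 30.6 and 20.4 RPKM (control), 26.8 and 28.8 RPKM (Ring1B-KD) and 19.4 and 28.2 RPKM (Dzip3-KD). That of Dzip3 was 2.24 and 2.68 RPKM (control), 1.18 and 1.89 RPKM (Ring1B-KD) and 1.70 and 1.31 RPKM (Dzip3-KD). The lowest Rnf2 values were in the files with the word Ring1BKD and the lowest Dzip3 values in the files with the word Dzip3KD. In the files with the word Ring1BKD the sample label was control 2 for one and Dzip3-KD 1 for the other. In those with the word Dzip3KD it was Ring1B-KD 1 and Dzip3-KD 2. Between the libraries labelled Ring1B-KD and control the log2 difference of Rnf2 was 0.15 ± 0.24 SE (adjusted p = 0.965, limma). Between those labelled Dzip3-KD and control that of Dzip3 was −0.47 ± 0.24 SE (adjusted p = 0.458, limma). By word against the word control, Rnf2 differed by −0.55 ± 0.13 SE for Ring1BKD (adjusted p = 0.232, limma). Dzip3 differed by −0.45 ± 0.21 SE for the word Dzip3KD (adjusted p = 0.754, limma). None of these passed. Directions by label below are therefore directions between labels.

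The members were abundantly expressed. Their levels summed to 2745 to 3202 RPKM per library, which was 2.06% to 2.36% of the RPKM sum, and the median member with a mean of at least 0.5 RPKM stood at 17.9 RPKM, against 4.68 RPKM for all genes over that level. Of the 80 members, 7 had a mean of at least 100 RPKM, 51 lay between 10 and 100 RPKM and 22 lay below 10 RPKM. The 10 highest members held 51.2% of the summed level.

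**Figure D1:**
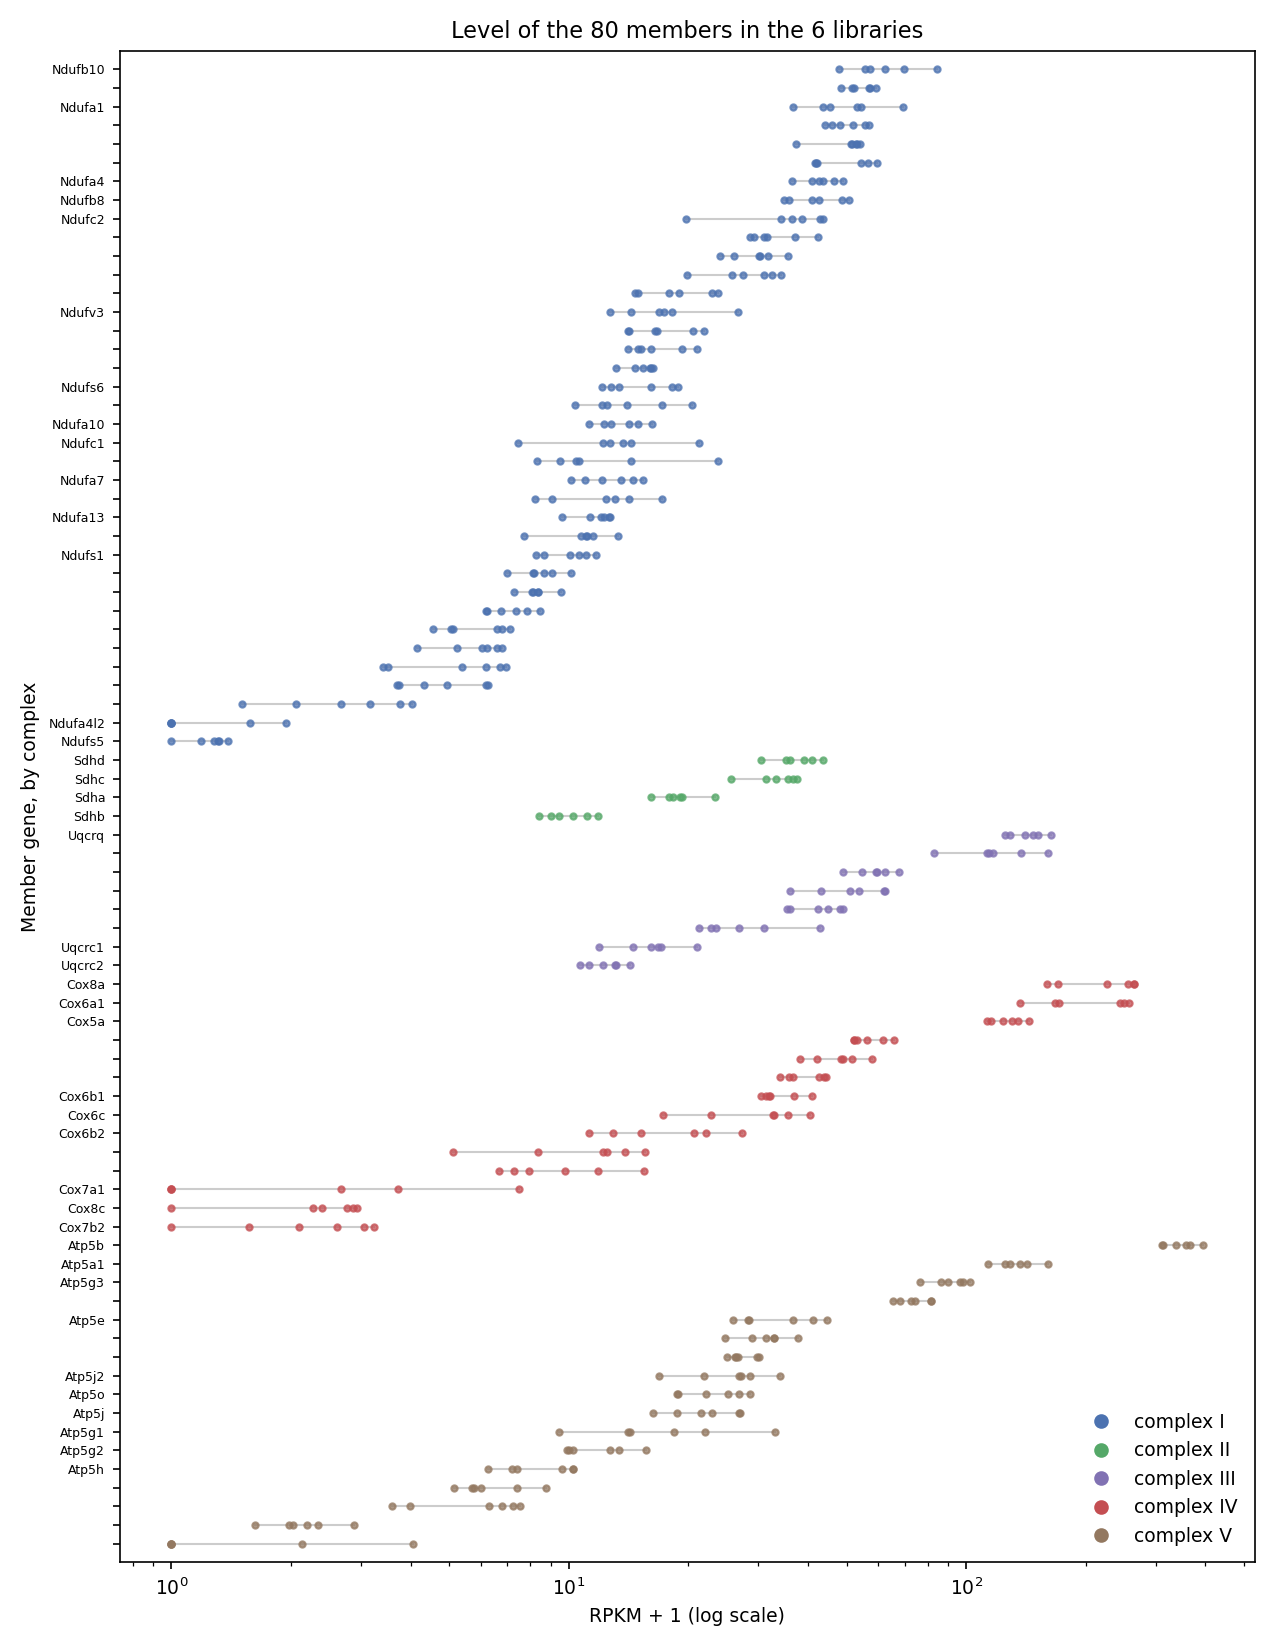
RPKM + 1 on a log scale for each of the 80 members, by complex, with 1 point for each of the 6 libraries and a grey line from the lowest to the highest. Rows are labelled for the members named in the text. Atp5b (mean 346 RPKM) stands highest, and Ndufs5 (0.247 RPKM) and Ndufa4l2 (0.254 RPKM) lowest.

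Within complex V the level was very uneven. Atp5b, the catalytic beta subunit, had the highest level of all members, at 394 and 357 RPKM in control, 337 and 365 RPKM in Ring1B-KD and 311 and 311 RPKM in Dzip3-KD. It alone made up 40.7% of the summed level of the 17 members. The membrane-bound c ring of the enzyme is built from identical copies of a single mature peptide that 3 genes encode. Of these, Atp5g3 was highest at 90.6 ± 9.27 RPKM (SD, n = 6), followed by Atp5g1 at 17.5 ± 8.30 RPKM and Atp5g2 at 10.98 ± 2.34 RPKM. The ranges of Atp5g1 (8.46 to 32.1 RPKM) and Atp5g2 (8.89 to 14.7 RPKM) over the libraries overlapped, and that of Atp5g3 (75.6 to 101 RPKM) lay above both.

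In complex IV the highest member was Cox8a, a small structural subunit, at 222 ± 47.7 RPKM (SD, n = 6), and it held 28.0% of the summed level of 14 members. Some members of complex IV are known as isoforms of muscle or testis, and they were picked out here after their values had been seen. Cox7a1, the heart and muscle isoform, stood at 2.72 and 0 RPKM in control, 6.48 and 0 RPKM in Ring1B-KD and 1.67 and 0 RPKM in Dzip3-KD. Cox7b2 and Cox8c, both described in testis, averaged 1.26 and 1.37 RPKM. Cox6b2, likewise described in testis, did not stand low: it had 10.2 to 26.2 RPKM, against 29.4 to 39.9 RPKM for its ubiquitous counterpart Cox6b1.

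In complex III, Uqcrq, a small ubiquinone-binding subunit, was highest at 142 ± 14.6 RPKM (SD, n = 6), and the core proteins Uqcrc1 and Uqcrc2 were lowest at 15.2 and 11.4 RPKM. In complex I, no member dominated: Ndufb10, an accessory subunit, was highest at 61.9 ± 12.9 RPKM and held 8.17% of the summed level of 37 members. In complex II, the membrane anchors Sdhd and Sdhc stood at 36.6 ± 4.66 and 32.3 ± 4.43 RPKM, the flavoprotein Sdha at 18.0 ± 2.42 RPKM and the iron-sulfur protein Sdhb at 9.01 ± 1.30 RPKM. Over the 6 libraries the range of Sdhd (29.5 to 42.7 RPKM) overlapped that of Sdhc (24.7 to 36.6 RPKM). Sdha (15.1 to 22.4 RPKM) and Sdhb (7.42 to 10.8 RPKM) lay below both without overlap. The place of Sdhc in this order depended on the exon length used, as described below.

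Members of the same complex therefore differed widely in RPKM, and 2 properties of the values bear on these levels. The first is exon length. Ndufs5, a complex I subunit, had 0 to 9 reads per library, and its values correspond to an exon length of 6505 bases, whereas the coding transcript used for comparison has 525 bases. If all its reads lay in that transcript, its level on the shorter length would be 3.07 RPKM in place of 0.247 RPKM. For Ndufa13, recovered at 4996 bases against 1243 bases, the level would under the same condition be 43.3 in place of 10.8 RPKM. Other members would fall under that condition. Sdhc, recovered at 1179 bases against 3171 bases, would have 12.03 in place of 32.3 RPKM. That lies below Sdha, at 17.76 RPKM on its transcript length, so the order of Sdhc and Sdha depends on the length used. Atp5j2 would have 12.42 in place of 24.86 RPKM. Where the reads of these genes lie was not tested.

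The second property is sequence shared with copies elsewhere in the genome, since only reads assigned uniquely to a gene had been counted. Over 79 members with a coding transcript in the annotation, the median share of 32-base windows that also occur elsewhere on the mm9 chromosomes was 4.62%, against 0.0212% for all 14449 genes compared. In 11 members (13.9%, against 5.66% of all genes) more than 50% of the windows were copied. The same held for 10.5% of mitochondrial ribosomal proteins, 10.8% of proteasome subunits and 64.8% of cytosolic ribosomal proteins, so it is not particular to the members. The copied share was 100% for Atp5g2, 87.4% for Atp5g1, 84.4% for Ndufs5 and 0.439% for Atp5g3. Among members named below for their differences, it was 36.4% for Cox6c, 31.7% for Cox8a, 23.15% for Cox6a1 and 17.3% for Ndufa1. The 11 members averaged 0.247 to 55.9 RPKM with a median of 10.98 RPKM, the 26 members with 10 to 50% copied had a median of 27.8 RPKM, and the 42 with up to 10% copied one of 15.5 RPKM. The median level did not follow the copied share in one direction, and Atp5g2, at 100%, still had 18 to 34 reads per library. Given their copied shares, the levels of Atp5g1, Atp5g2 and Ndufs5 are uncertain, and the part of copied sequence in them was not tested.

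**Figure D2:**
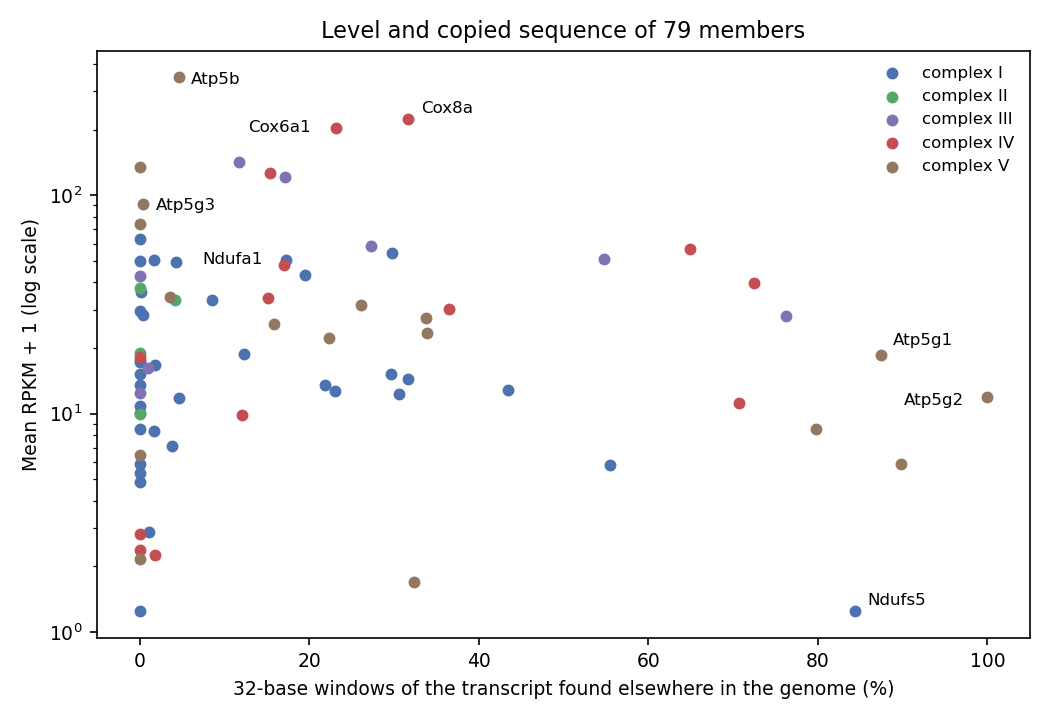
Share of the 32-base windows of a coding transcript that occur elsewhere in the genome (x axis, percent) against mean RPKM + 1 (y axis, log scale) for 79 members, coloured by complex. Atp5g2, Atp5g1 and Ndufs5 lie above 80%, while Atp5g3 and Atp5b lie below 5%.

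Of the 80 members, 78 passed the filter for testing, a mean of at least 0.5 RPKM over all 6 libraries. Ndufs5 and Ndufa4l2 did not pass. Ndufa4l2, a hypoxia-induced paralog of Ndufa4, was listed at 0 in 4 libraries and at 0.944 and 0.580 RPKM in Ring1B-KD 2 and Dzip3-KD 2, which is 3 and 2 reads. Differences below are on the log2(RPKM + 1) scale, which understates the difference of low genes, and p-values are from limma with Benjamini-Hochberg adjustment over all 11538 genes tested.

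The first question was whether members differed between the labelled knockdowns and control. For Ring1B-KD against control, 0 of the 78 members had an adjusted p below 0.05 in limma, where 0% of all genes did. At an unadjusted p below 0.05 there were 10 members (12.8%), 6 higher and 4 lower in Ring1B-KD, against 5.10% of all genes. The median member difference was 0.07 and that of all genes −0.02, but without control 2 the member median turned to −0.079. In 15 members both Ring1B-KD libraries lay above both controls (19.2%, against 14.9% of all genes), and in 16 both lay below (20.5%, against 18.9%).

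The member with the smallest p in this comparison was Cox6c, a small subunit of complex IV. It stood at 21.8 and 16.2 RPKM in control and at 39.5 and 31.9 RPKM in Ring1B-KD. The libraries did not overlap, but the difference of 0.88 ± 0.20 SE did not pass (adjusted p = 0.902, limma). Atp5j2, a subunit of the ATP synthase membrane part, had 20.9 and 15.9 RPKM in control and 26.1 and 32.98 RPKM in Ring1B-KD. On the lower side, Atp5e, the epsilon subunit of the central stalk, had 40.1 and 43.7 RPKM in control and 27.2 and 24.8 RPKM in Ring1B-KD (−0.67 ± 0.18 SE, adjusted p = 0.902, limma). Atp5h, the stator subunit d, had 9.24 and 8.63 RPKM in control and 6.20 and 5.27 RPKM in Ring1B-KD. Of its windows, 79.8% are copied, and of those of Cox6c 36.4%.

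For Dzip3-KD against control the result was again 0 of 78 members at an adjusted p below 0.05 in limma, with 0% of all genes. At an unadjusted p below 0.05 there were 8 members (10.3%), 6 higher and 2 lower in Dzip3-KD, against 12.2% of all genes. Both Dzip3-KD libraries lay above both controls for 18 members (23.1%, against 20.4% of all genes) and below for 14 (17.9%, against 30.3%). The median member difference was 0.05 and that of all genes −0.07, but the member median turned to −0.10 without control 2 and to −0.038 without Dzip3-KD 2. This comparison shares its control libraries with the one before, so their values are not independent.

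Cox6c again had the smallest p, with 34.7 and 31.6 RPKM in Dzip3-KD against the 21.8 and 16.2 RPKM of control (0.79 ± 0.20 SE, adjusted p = 0.3005, limma). Ndufa1, a subunit required for complex I assembly, had 35.7 and 42.6 RPKM in control and 52.2 and 68.5 RPKM in Dzip3-KD, a difference of 0.60 ± 0.20 SE (adjusted p = 0.323, limma). Atp5o, the stator subunit that attaches the catalytic head, had 25.8 and 24.2 RPKM in control and 17.8 and 17.7 RPKM in Dzip3-KD. Uqcrc1 had 20.03 and 15.1 RPKM in control and 10.9 and 13.5 RPKM in Dzip3-KD (−0.49 ± 0.20 SE, adjusted p = 0.393, limma). None of these passed the test.

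Between the knockdown labels, 0 of 78 members had an adjusted p below 0.05 for Dzip3-KD against Ring1B-KD in limma, with 0% of all genes, and 5 members did at an unadjusted p below 0.05 (6.41%, against 4.63% of all genes). Ndufc1, an accessory subunit of complex I, had 6.44 and 11.7 RPKM in Ring1B-KD and 13.3 and 20.2 RPKM in Dzip3-KD. Ndufc2, its neighbour in the complex, had 18.7 and 35.5 RPKM in Ring1B-KD and 42.7 and 41.8 RPKM in Dzip3-KD. For both genes the lowest library of all 6 was Ring1B-KD 1. On the lower side in Dzip3-KD stood Atp5j, coupling factor 6 of the stator, with 26.0 and 25.8 RPKM in Ring1B-KD and 15.3 and 21.98 RPKM in Dzip3-KD. Atp5o had 27.6 and 21.2 RPKM in Ring1B-KD against the 17.8 and 17.7 RPKM of Dzip3-KD. All 4 had an adjusted p of 0.864 (limma). The median member differed by 0.00 and the median of all genes by −0.03, and the member median was 0.12 without Dzip3-KD 1 and −0.10 without Dzip3-KD 2.

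By complex, the medians of the label comparisons lay apart. For complex IV the median was 0.30 in Ring1B-KD (13 of 14 members above 0) and 0.42 in Dzip3-KD (12 of 14). For complex II it was −0.18 and −0.24, with 0 of 4 members above 0 in either. For complexes I, III and V it lay between −0.11 and 0.08 in both. These comparisons share the control libraries, and no test was made over a complex. Exon length moved with both: in Ring1B-KD the median was 0.22 for the 40 members below 700 bases and −0.12 for the 15 of 1500 bases or more (all genes 0.10 and −0.02), and in Dzip3-KD it was 0.17 and −0.20 (all genes 0.04 and −0.07). The part of length in the medians of the complexes was not tested.

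The second question was how the members differed between the libraries in files 04 to 06 and those in files 01 to 03. The fit for this question and the next held the file number set and the file word as additive terms. Its p-values measure the spread left after both terms, and libraries that share a word carry different labels. Between the sets, 3 of 78 members had an adjusted p below 0.05 in limma (3.85%), against 7.62% of all genes. This share lies below the background and is no result about the members as a group. Cox6a1 and Ndufa1 rose and Atp5g1 fell in 04 to 06. At an unadjusted p below 0.05 there were 17 members (21.8%, against 26.5% of all genes). The median member differed by 0.00 and the median of all genes by −0.04. Over all genes, 455 were higher and 424 lower in 04 to 06, and 564 higher and 341 lower when libraries were scaled to a common 75th percentile, under which Cox6a1, Ndufa1 and Atp5g1 kept their calls and Cox8a passed as well.

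**Figure D3:**
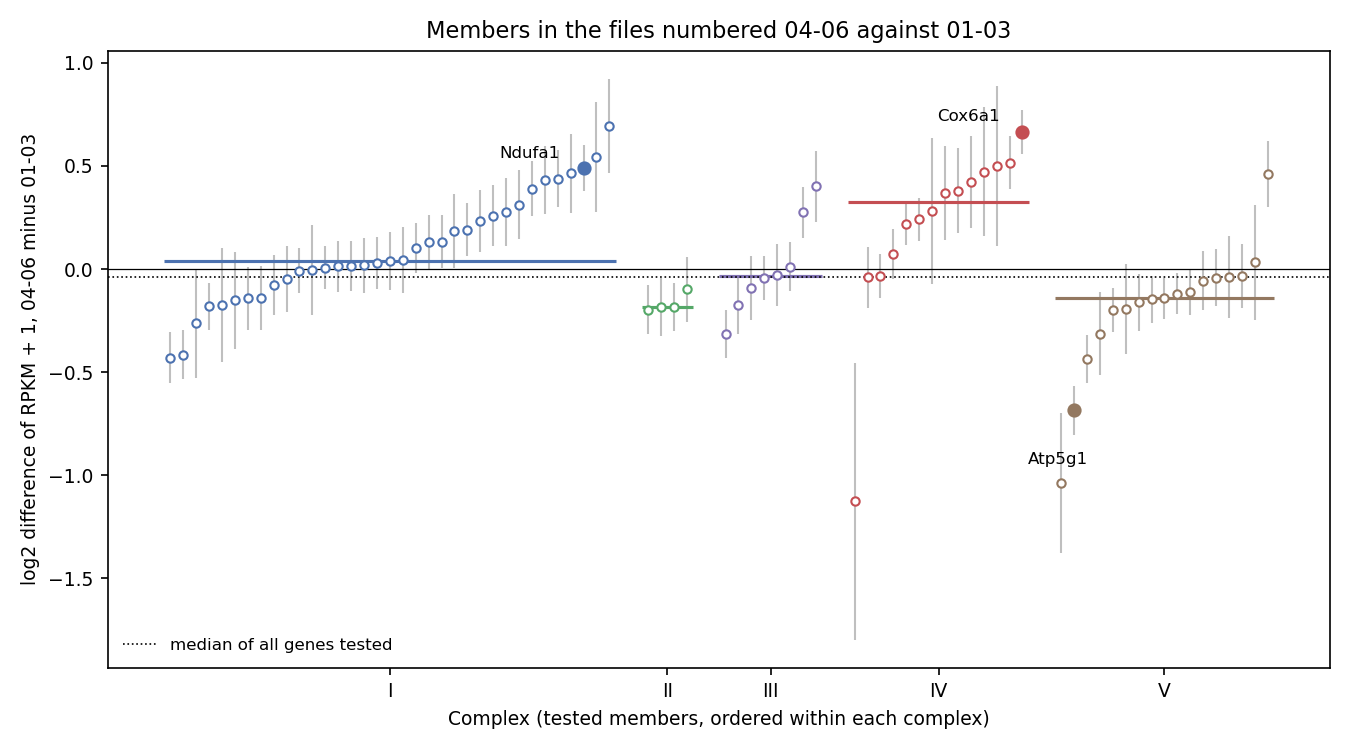
Difference in log2(RPKM + 1) between files 04 to 06 and 01 to 03 for the 78 tested members, ordered within each complex, with bars of 1 standard error. Filled points mark Cox6a1, Ndufa1 and Atp5g1 (adjusted p below 0.05, limma), coloured lines the median of each complex and the dotted line the median of all genes tested (−0.04).

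Cox6a1 encodes the ubiquitous form of subunit VIa of cytochrome c oxidase and spans positions 115795651 to 115798990 of chromosome 5 in mm9, minus strand. It stood at 167, 170 and 136 RPKM in files 01, 02 and 03 and at 255, 248.7 and 243 RPKM in files 04, 05 and 06. The sets did not overlap, and neither did the exact 95% Poisson intervals of their reads, which cover counting error only: the highest upper bound in 01 to 03 was 190.1 RPKM and the lowest lower bound in 04 to 06 was 222 RPKM. The difference was 0.67 ± 0.11 SE (adjusted p = 0.0147, limma), or 1.59-fold on the RPKM + 1 scale. The library labelled Ring1B-KD 1 was the lowest of the 6 and Ring1B-KD 2 the highest, so the Ring1B-KD label held both ends of the range.

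Ndufa1 spans positions 34727583 to 34731158 of chromosome X, also minus strand. It stood at 35.7, 42.6 and 44.5 RPKM in files 01 to 03 and at 53.4, 52.2 and 68.5 RPKM in files 04 to 06, again without overlap. The difference was 0.49 ± 0.11 SE (adjusted p = 0.0382, limma). It rested on 53 to 121 reads per library, and the call was lost when any 1 of the 6 libraries was left out (adjusted p 0.0640 to 0.172).

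Atp5g1 spans positions 95930166 to 95936984 of chromosome 11, minus strand as well. It stood at 21.0, 13.1 and 32.1 RPKM in files 01 to 03 and at 13.2, 8.46 and 17.4 RPKM in files 04 to 06. The sets overlapped, but for each of the 3 file words the library in 04 to 06 was the lower one. The difference of −0.68 ± 0.12 SE (adjusted p = 0.0191, limma) needs the word as a term, since without it the adjusted p was 0.221. It rested on 24 to 94 reads per library, on a gene with 87.4% of its windows copied. For Cox6a1 and Ndufa1 the copied shares were 23.15% and 17.3%. For Cox6a1 and Atp5g1 the call was also lost without Dzip3-KD 1 (adjusted p = 0.0544 for each, limma), and none of the 3 members was called when all listed genes were tested without a filter on low values (adjusted p 0.0973 to 0.123). Over all alternatives the adjusted p ranged from 0.000308 to 0.109 for Cox6a1, from 0.0246 to 0.172 for Ndufa1 and from 0.0087 to 0.221 for Atp5g1.

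**Figure D4:**
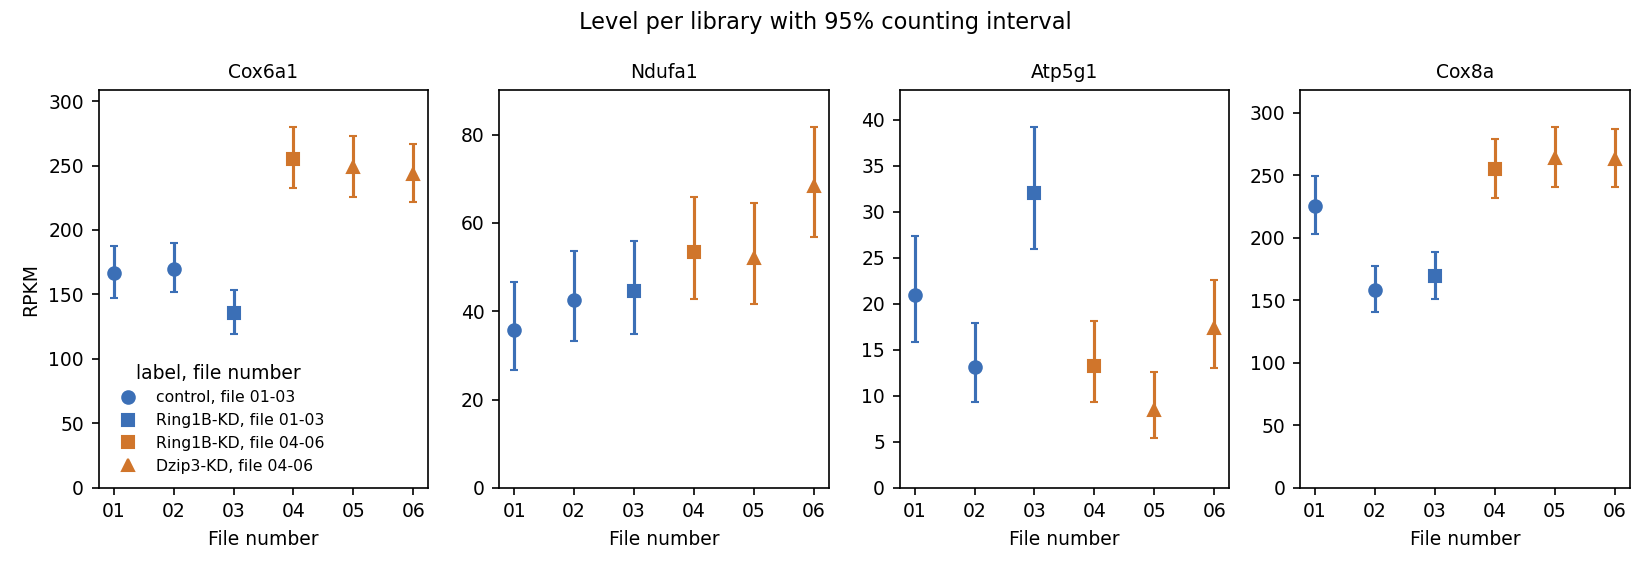
RPKM of Cox6a1, Ndufa1, Atp5g1 and Cox8a by file number, with exact 95% Poisson intervals of the reads. Shapes give the sample label and colours the file number set. Cox6a1 and Cox8a are higher in all 3 files 04 to 06, while the sets of Atp5g1 overlap.

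Promoter sequences were compared because ETS factors such as GABP, and NRF1, YY1 and Sp1, are known to bind promoters of respiratory genes. RefSeq promoter windows (GRCm38.p6, from 250 bases before to 50 after the annotated start) were matched by symbol for 65 of the 80 members, with 70 windows, and 32851 windows were searched in all, on both strands. No motif searched contains another. The ETS core CCGGAAG was in 22.9% of the members' windows, against 8.86% of all windows. The NRF1 core GCGCATGC was in 14.3%, against 2.71%, and the YY1 core AAGATGGC in 12.9%, against 2.75%. The Sp1 core GGGCGG was in 38.6%, against 35.7%. A match is a description of letters and not evidence of binding.

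The 250 bases before the start are shown for the 3 called members, to set their motif content side by side, from GRCm38.p6 and not from mm9, each on the minus strand and read 5′ to 3′, with motif matches of either strand in capitals. Cox6a1 (chr5:115348959-115349208) holds the ETS core, overlapping copies of the NRF1 core, one on each strand, and 2 Sp1 cores. Ndufa1 (chrX:37191239-37191488) holds 1 Sp1 core and Atp5g1 (chr11:96075632-96075881) none of the 4 motifs.
Cox6a1: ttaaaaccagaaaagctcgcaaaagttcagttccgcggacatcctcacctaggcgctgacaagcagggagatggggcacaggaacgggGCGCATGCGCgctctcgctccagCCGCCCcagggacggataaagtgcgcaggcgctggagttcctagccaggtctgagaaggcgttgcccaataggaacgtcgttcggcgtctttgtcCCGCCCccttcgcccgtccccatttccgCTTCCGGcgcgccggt
Ndufa1: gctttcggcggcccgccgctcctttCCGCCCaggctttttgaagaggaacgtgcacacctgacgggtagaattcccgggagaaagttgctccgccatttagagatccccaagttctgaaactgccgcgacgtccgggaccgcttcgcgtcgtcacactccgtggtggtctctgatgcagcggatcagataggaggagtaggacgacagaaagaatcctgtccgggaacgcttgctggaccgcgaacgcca
Atp5g1: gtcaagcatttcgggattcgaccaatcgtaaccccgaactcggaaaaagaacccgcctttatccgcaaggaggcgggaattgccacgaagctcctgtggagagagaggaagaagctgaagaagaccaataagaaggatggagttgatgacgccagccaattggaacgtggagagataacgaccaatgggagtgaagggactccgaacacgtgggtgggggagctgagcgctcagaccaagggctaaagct

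Among the members that did not pass, Cox8a came nearest, and it was picked out after its values had been seen. It had 225, 158 and 169 RPKM in files 01 to 03 and 255, 264 and 263 RPKM in files 04 to 06 (0.52 ± 0.13 SE, adjusted p = 0.0510, limma). In all, 5 members lay higher in every library of 04 to 06 than in any of 01 to 03 (6.41%, against 13.1% of all genes): Cox5a, Cox6a1, Cox8a, Ndufa1 and Ndufa7. Lower without overlap were Atp5o and Ndufb10 (2.56%, against 15.5% of all genes).

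The complexes differed in sign. Complex IV summed to 738, 643 and 690.0 RPKM in files 01 to 03 and to 902, 879 and 924 RPKM in files 04 to 06. Its sums did not overlap, and 11 of its 14 members were on the higher side, with a median of 0.32. Without Cox6a1 and Cox8a the sums of the other 12 members were 346, 314 and 385 RPKM in files 01 to 03 and 391, 366 and 418 RPKM in files 04 to 06, and these overlapped. By label, complex IV summed to 738 and 643 RPKM in control, 690.0 and 902 RPKM in Ring1B-KD and 879 and 924 RPKM in Dzip3-KD, so the Ring1B-KD libraries lay apart from each other by more than the controls did.

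Complex V stood on the other side. It summed to 946, 860 and 875 RPKM in files 01 to 03 and to 847, 745 and 825 RPKM in files 04 to 06, also without overlap. Of its 17 tested members, 2 were on the higher side and the median was −0.14. Without Atp5b and Atp5a1, the beta and alpha subunits of the catalytic head, the sums were 393, 361 and 410 RPKM against 346, 321 and 390 RPKM, and they overlapped.

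In complex II, all 4 members were on the lower side in 04 to 06 (median −0.18), and none passed the test. Its sums of 110, 101 and 94.9 RPKM in files 01 to 03 and 92.1, 78.5 and 99.0 RPKM in files 04 to 06 overlapped. Complex I (716 to 769 RPKM against 732 to 840 RPKM) and complex III (425 to 468 RPKM against 430 to 514 RPKM) overlapped as well. These sums and medians are descriptions, and no test was made over a complex.

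**Figure D5:**
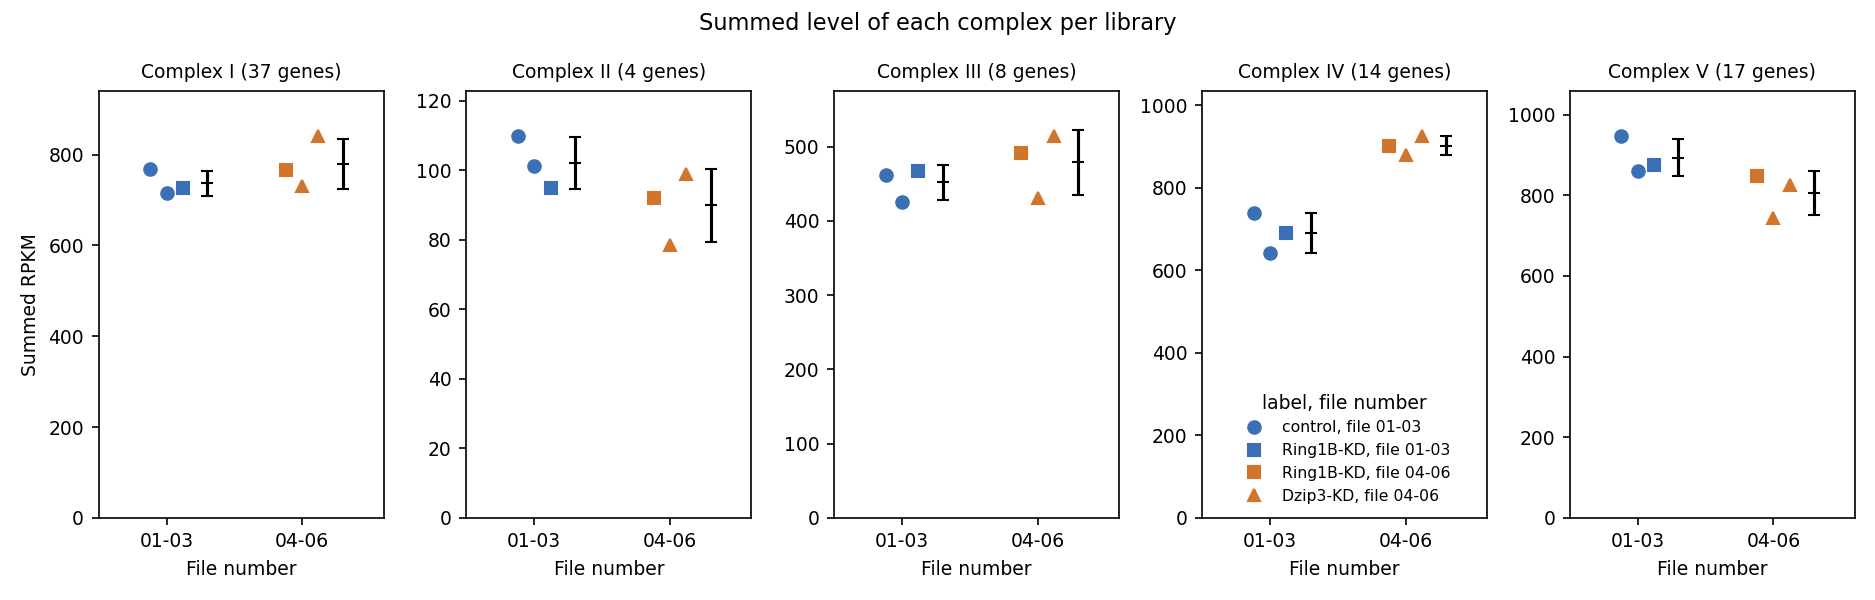
Summed RPKM of the members of each complex per library (y axis from 0), for files 01 to 03 and 04 to 06, with the mean and SD of the 3 libraries beside the points. The sets do not overlap for complex IV (643 to 738 against 879 to 924 RPKM) and complex V (860 to 946 against 745 to 847 RPKM).

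Exon length moved with this contrast too. Over all tested genes with a recovered length, the median difference between 04 to 06 and 01 to 03 was 0.07 for 373 genes below 700 bases, −0.03 for 1593 genes of 700 to 1500 bases and −0.05 for 8730 genes above that. For the members in these classes it was 0.07 (40 members), −0.04 (21 members) and −0.14 (15 members). Cox6a1 (533 bases), Ndufa1 (493 bases) and Cox8a (545 bases) are in the shortest class and Atp5b (1879 bases) and Atp5a1 (2431 bases) in the longest. The part of length in the differences of the complexes was not tested.

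Some marker genes moved with the same contrast, in which 7.62% of all genes passed. All 4 listed genes of the 2-cell-like state (Zscan4c, Zscan4d, Zscan4f and Usp17lc) fell in 04 to 06, with adjusted p from 0.0221 to 0.0400 (limma). They summed to 141, 345 and 121 RPKM in files 01 to 03 and to 64.05, 286 and 58.8 RPKM in files 04 to 06, so the sets overlapped. Of the 7 markers of embryonic stem cells, Esrrb and Tfcp2l1 fell and the others did not pass. The list median was −0.09, with Nanog on the higher side (0.37 ± 0.10 SE, adjusted p = 0.0715, limma). Of the 3 tested markers of trophectoderm, Krt8 fell and the others did not pass. Their median was −0.26, with Tfap2c on the higher side (0.49 ± 0.14 SE, adjusted p = 0.0755, limma). The part of these cells or states in the members' values was not tested.

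The third question was the difference by the word in the file name, within the sets. For the word Ring1BKD against the word control, 0 of 78 members had an adjusted p below 0.05 in limma, against 0.416% of all genes (48, all higher). At an unadjusted p below 0.05 there were 7 members (8.97%, against 8.31% of all genes), 1 higher and 6 lower. The median member was 0.13 lower and the median of all genes 0.08 lower. In 31 members the library with the word Ring1BKD was the lower one in both sets (39.7%, against 40.6% of all genes), and in 8 it was the higher one (10.3%, against 18.5%). Scaling the libraries to a common 75th percentile moved the member median to −0.02 and that of all genes to 0.01, so the lower side of the members depended on the scaling.

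Atp5g1 had the smallest p of the members here, with 21.0 RPKM (word control) and 13.1 RPKM (word Ring1BKD) in 01 to 03 and with 13.2 and 8.46 RPKM in 04 to 06 (−0.62 ± 0.15 SE, adjusted p = 0.222, limma). Uqcrc1 followed with 20.03 and 15.1 RPKM in 01 to 03 and 16.1 and 10.9 RPKM in 04 to 06. On the higher side, Ndufa10, an accessory subunit of complex I, had 11.2 and 15.2 RPKM in 01 to 03 and 10.3 and 13.2 RPKM in 04 to 06, and Ndufs6 had 11.1 and 12.3 RPKM and 11.7 and 15.1 RPKM. None passed. The 4 genes of the 2-cell-like state, Zscan4c, Zscan4d, Zscan4f and Usp17lc, rose with the word Ring1BKD (adjusted p 0.0156 to 0.0280, limma) and summed to 345 and 286 RPKM in the libraries with the word Ring1BKD, labelled control 2 and Dzip3-KD 1, against 58.8 to 141 RPKM in the other 4. Their part in the members' values was not tested.

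For the word Dzip3KD against the word control, 0 of 78 members had an adjusted p below 0.05 in limma, with 0% of all genes. At an unadjusted p below 0.05 there were 12 members (15.4%, against 6.52% of all genes), 9 higher and 3 lower. The library with this word was the higher one in both sets for 20 members (25.6%, against 22.3% of all genes) and the lower one for 17 (21.8%, against 29.5%). The median member difference was 0.01 and that of all genes −0.03, and the member median turned to −0.082 without Ring1B-KD 2 and to −0.045 without Dzip3-KD 2.

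Ndufs6, which carries a zinc site at the base of the complex I arm, had 11.1 RPKM (word control) and 17.8 RPKM (word Dzip3KD) in 01 to 03 and 11.7 and 17.2 RPKM in 04 to 06. The difference was 0.57 ± 0.15 SE (adjusted p = 0.658, limma). Ndufv3, a subunit of the NADH-oxidizing module, had 16.4 and 25.7 RPKM and then 11.7 and 17.1 RPKM. On the lower side, Ndufb8, an accessory subunit of complex I, had 49.7 and 33.8 RPKM and then 41.5 and 34.8 RPKM. The direction was the same in both sets for each of these 3 members, and none passed.

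Genes that work with the complexes were then examined, by lists chosen with earlier results of these data known. No gene of these lists passed in a comparison of labels (limma). Between the file number sets 7.62% of all genes passed, the share to set beside the counts below, and no list was tested as a set. Between the file number sets, Cox4i1, the main isoform of subunit IV of cytochrome c oxidase that the symbol rule does not take, rose by 0.43 ± 0.10 SE (adjusted p = 0.0454, limma). It was the only one to pass of 7 tested genes listed as missed by the rule, among them Cyc1 and Atpif1. Of 43 tested assembly factors, 2 rose and 0 fell, with a median of 0.05: Sdhaf4, an assembly factor of succinate dehydrogenase (1.04 ± 0.14 SE, adjusted p = 0.0106, limma), and Cox14, one of complex IV (0.72 ± 0.16 SE, adjusted p = 0.0378, limma). Both were named after their values had been seen. Cox17, the copper chaperone of complex IV, was the highest assembly factor at 139 ± 19.9 RPKM (SD, n = 6) and did not pass.

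Of 16 tricarboxylic acid cycle enzymes and pyruvate dehydrogenase subunits, 1 fell and 0 rose in files 04 to 06: Pdha1, the E1 alpha subunit of pyruvate dehydrogenase, by 0.66 on the log2 scale (SE 0.11, adjusted p = 0.0165, limma). Their median was −0.25, and 7.62% of all genes passed in this contrast. The list summed to 343 to 390.0 RPKM in 01 to 03 and to 296 to 317 RPKM in 04 to 06, without overlap. Of 18 tested mitochondrial transcription factors and nuclear regulators of the respiratory chain, among them Gabpa (24.3 ± 1.23 RPKM, SD, n = 6), 0 passed in limma in any of the 6 comparisons. Between the file number sets their median was −0.11. This list summed to 166 to 172 RPKM in 01 to 03 and to 135 to 158 RPKM in 04 to 06, also without overlap. Genes of mitochondrial DNA were not among the listed symbols (0 matched), so the mitochondrially encoded core was not analysed here.

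For comparison, 3 of 77 mitochondrial ribosomal proteins passed between the file number sets (1 higher, 2 lower, median −0.10). So did 3 of 93 tested genes named as cytosolic ribosomal proteins, pseudogenes included (1 higher, 2 lower, median −0.03). Of 37 proteasome subunits 2 passed (0 higher, 2 lower, median −0.27). Each of these shares lies below the 7.62% of all genes and is no result about the list. The proteasome subunits summed to 893 to 978 RPKM in 01 to 03 and to 726 to 802 RPKM in 04 to 06, without overlap.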

How the data were processed

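Libraries from 3 labelled groups were made with a stranded kit and sequenced on MiSeq; the methods state alignment to mm9 with a mismatch allowed and counting of uniquely mapped reads only. The authors deposited RPKM values, 1 list per library, without pooling. The annotation and tool versions are not given in the sources used here.

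Members and gene lists were chosen with earlier results of these data known. limma 3.58.1 (R 4.3.3) with a variance trend was run on log2(RPKM + 1), for a mean of at least 0.5 RPKM (11538 genes), over all 6 libraries, with Benjamini-Hochberg adjustment and a threshold of 0.05. One fit held the labels and another the file number set and word. Code was tested on simulated data. Reads were recovered as whole multiples of 1 step per gene (tolerance 0.02) for 15590 genes (93.5%), and 32.2% of the lengths so found are in the annotation compared. Of each gene, 1 coding transcript was cut into windows of 32 bases and searched on mm9. Named are the highest member per complex, called members or else the 2 of smallest p per direction, members under the filter, Sdha to Sdhd, the Atp5g genes, the targeted genes, and list examples by level. One member that this rule names is not reported here. Alternatives changed the pseudocount (0.1), filter, scaling, libraries, replicate block, model and fit terms. Weights on recovered reads, crossed numbers and sums without the 2 highest members were added after seeing the data.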

Additional observations from a re-analysis of the deposited data

How the results depend on the processing

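By label and by word, 0 members were called under every alternative run. Over all genes, 28 were called for Dzip3-KD against control when those 4 libraries alone were compared. For files 04 to 06 against 01 to 03 the count of 3 members became 0 with no filter on low values (0 of 16668 genes called), 1 without the file word (Cox6a1) and 6 with weights on recovered reads (1676 genes called in place of 879), and it ranged from 3 to 6 when each library was left out. It was 5 without control 2, where Ndufb4, Atp5k and Cox7a1 entered, and 6 without Ring1B-KD 1 or without Dzip3-KD 2, where Atp5j2, Cox6c, Ndufa2 and Atp5e entered. Without Dzip3-KD 1 the 3 members called were Ndufb4, Atp5k and Cox7a1. The cause was not tested. Over all genes, leaving out a library gave 264 to 582 calls. With left-out libraries the member medians ranged from −0.079 to 0.12 for Ring1B-KD against control (lowest without control 2), from −0.10 to 0.11 for Dzip3-KD against control (lowest without control 2), from −0.10 to 0.12 for Dzip3-KD against Ring1B-KD, from −0.19 to −0.088 for the word Ring1BKD and from −0.082 to 0.12 for the word Dzip3KD. The file number median was 0.066 with quantile normalization, and that of the word Ring1BKD −0.021 with scaling to the 75th percentile and −0.026 with quantile normalization. The log2 ratio of summed levels between the sets was 0.39 for complex IV and 0.17 without Cox6a1 and Cox8a. Of 326 values of named members under alternatives, 13 lost a call, each between the file number sets, and 0 changed sign. Deviations of same-numbered libraries correlated at −0.036 (control and Ring1B-KD), −0.242 (control and Dzip3-KD) and 0.044 (Ring1B-KD and Dzip3-KD), so the numbers were not taken to pair libraries. With the replicate number as a block, 0 members and 0, 1 and 0 genes were called in the label comparisons. With crossed numbers, chosen after seeing the data, 0 genes were called for Dzip3-KD against control. Each labelled group held only 2 libraries, and 24 to 121 reads per library stood behind Ndufa1 and Atp5g1. How far the number of libraries or the depth limited what could be detected was not tested.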
